A study of Mus musculus with 6 samples.

Results

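The interferon regulatory factors (IRFs) are a family of transcription factors, and 8 of their genes, Irf1, Irf2, Irf3, Irf4, Irf5, Irf7, Irf8 and Irf9, are described here out of 49585 genes counted. They were taken by gene name. RNA was counted in microglia, the resident macrophages of the brain, from male mice aged 3 months. The 3 WT libraries and the 3 libraries labelled IRF8KO each came from its own brain, with cells isolated without enzymes and sorted into TRIzol. The labels name no strain, no Irf8 allele and no cells in which it is lost, so IRF8KO below means the libraries with that label.

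IRF proteins share a DNA-binding domain that recognises GAAA half-sites, and they differ in the partners and signals that make them active. IRF3 and IRF7 wait in the cytoplasm until nucleic acid sensors lead to their phosphorylation, and then switch on type I interferon genes. Interferon in turn activates a complex of IRF9 with STAT2, which raises many antiviral genes, Irf7 among them. IRF8 and IRF4 bind weakly alone and act with partners such as PU.1 and BATF factors, and in microglia IRF8 is known as a factor of cell identity and activation.

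Between 3658917 and 11098363 reads per library were counted on genes. The targeted gene was counted in all 6 libraries and is described first below. Apoe took between 25.5% and 33.7% of all counts in the IRF8KO libraries and between 0.154% and 0.324% in WT, so levels are given as CPM, which are counts relative to a TMM-scaled library size, times a fixed factor. TMM scaling sets libraries to a common level over most genes. WT replicate 3 stood apart: its log2 CPM correlated at 0.892 and 0.897 with WT replicates 1 and 2, which correlated at 0.969 with each other across the tested genes. Its difference from the other WT libraries was larger for genes of higher GC content (Spearman's rho 0.615 across 11034 genes, which are not independent replicates). The difference of IRF8KO from WT had a rho of 0.276 with GC content over the same genes. Of 12 microglial marker genes, all were counted in WT and only Sall1 was at 0 in IRF8KO. In edgeR's test P2ry12, Cx3cr1, Gpr34 and Sall1 fell, Fcrls rose and 7 were not called, 41.7% called beside 19.1% of all tested genes. Sall1 passed the filter on low counts through WT. The median log2 fold change was −0.69, against −0.11 over all tested genes. The summed level was 57042 to 105825 CPM in WT and 46958 to 67121 CPM in IRF8KO.

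The 300 bases around the start of transcription are shown for the targeted gene and for both members whose transcripts changed, because sites for IRF and STAT proteins there are the known routes by which family members act on each other. The windows are RefSeq sequences on GRCm38.p6, from 250 bases before the start to 50 after it, in the direction of the gene, and capitals mark matches to a GAS motif. They lie at chr8:120736108-120736407 on the plus strand for Irf8, chr7:141266375-141266674 on the minus strand for Irf7 and chr6:29526375-29526674 on the plus strand for Irf5.
Irf8: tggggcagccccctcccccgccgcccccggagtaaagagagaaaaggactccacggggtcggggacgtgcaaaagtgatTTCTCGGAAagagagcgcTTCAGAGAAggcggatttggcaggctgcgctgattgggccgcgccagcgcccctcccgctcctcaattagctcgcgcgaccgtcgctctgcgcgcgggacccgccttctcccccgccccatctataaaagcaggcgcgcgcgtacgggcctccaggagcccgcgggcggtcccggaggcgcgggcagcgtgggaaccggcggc
Irf7: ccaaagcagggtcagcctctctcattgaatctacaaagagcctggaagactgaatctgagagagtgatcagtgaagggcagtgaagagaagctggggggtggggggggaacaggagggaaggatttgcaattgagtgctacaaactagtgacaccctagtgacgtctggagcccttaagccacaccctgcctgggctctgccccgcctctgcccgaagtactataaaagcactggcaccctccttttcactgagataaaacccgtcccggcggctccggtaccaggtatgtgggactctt
Irf5: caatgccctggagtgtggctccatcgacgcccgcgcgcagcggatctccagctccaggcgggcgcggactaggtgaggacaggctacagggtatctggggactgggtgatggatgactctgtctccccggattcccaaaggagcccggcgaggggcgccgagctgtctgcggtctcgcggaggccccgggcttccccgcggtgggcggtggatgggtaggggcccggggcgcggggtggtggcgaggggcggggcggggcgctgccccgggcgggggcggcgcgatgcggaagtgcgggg

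ISRE, EICE and GAS motifs were searched on both strands: the interferon-stimulated response element ISRE, as GAAA and GAAA with 2 free bases between them, the composite element EICE for a PU.1-like factor with an IRF, as GGAA and GAAA with 2 free bases between them, and the STAT site GAS, as TTCNNNGAA. The Irf8 window held 2 GAS matches, TTCTCGGAA and TTCAGAGAA, which begin 171 and 153 bases before the start. No match to ISRE, EICE or GAS was found in the Irf7 and Irf5 windows, which says only that these exact letters are not in these windows. All 8 members had at least 1 window, and among their 11 windows there were 2 more with a match. The first Irf1 window held the GAS match TTCCCCGAA, and the Irf2 window held the ISRE match GAAAATGAAA, which overlaps the EICE match GGAAGTGAAA, together with the GAS match TTCCGAGAA. Among 32851 mouse windows of the same length, 3.44% held an ISRE match, 2.72% an EICE match and 8.30% a GAS match. A match is a description of the letters and not a measured binding site.

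Irf8 (ENSMUSG00000041515, chr8:120736358-120756694, plus strand), the targeted gene, encodes the partner-dependent factor named in the label. It had 793, 849 and 1399.8 CPM in WT replicates 1, 2 and 3 and 741, 648 and 848 CPM in IRF8KO replicates 1, 2 and 3. The highest IRF8KO library lay between the WT libraries, so the groups overlapped, and WT replicate 3 was far above the other 5. The log2 fold change of −0.44 (95% interval −1.15 to 0.27) was not called (adjusted p = 0.368 by edgeR's quasi-likelihood F test with Benjamini-Hochberg adjustment, BH below, where a call needs an adjusted p under 0.05). Scaling by library size alone was the one of 19 alternatives that called it, at −0.90 (edgeR, BH-adjusted p = 0.0076). Counts over a whole gene do not tell an intact transcript from an altered one, so the total here does not check the genotype, and every direction below rests on the labels.

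Of the 8 members, which all passed the filter on low counts, 1 was called higher and 1 lower in IRF8KO by this test. Among all 11041 tested genes 19.1% were called, 9.64% higher and 9.46% lower, so 2 of 8 is close to the background of this comparison. The CPM of the groups did not overlap for Irf4, Irf5, Irf7 and Irf9, where 37.9% of all tested genes were without overlap, 20.0% higher and 17.9% lower in IRF8KO. Within the family, Irf7 rose 8.07-fold and Irf5 was 2.47-fold lower in IRF8KO, while Irf8, Irf1, Irf2, Irf3, Irf4 and Irf9 were not called.

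**Figure D1:**
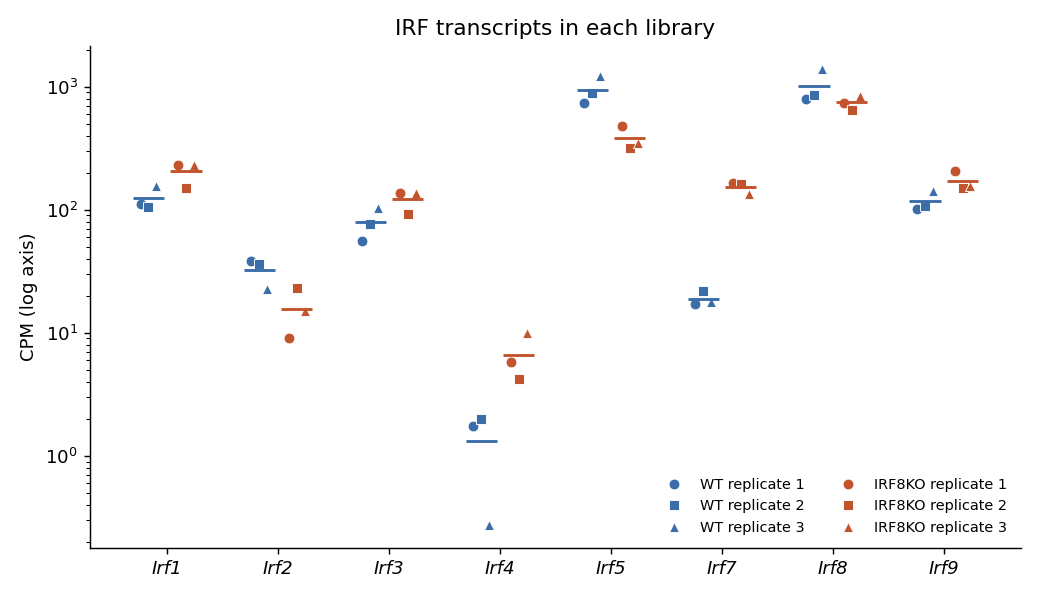
Level of each IRF transcript in CPM on a log axis, with 1 point per library, WT and IRF8KO in separate colours and a bar at the group mean. For Irf7 the IRF8KO libraries lie between 134 and 164 CPM, above the WT range of 17.1 to 21.8, and for Irf5 all IRF8KO libraries lie below all WT libraries.

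Irf7 (ENSMUSG00000025498, chr7:141262706-141266481, minus strand) encodes the interferon-inducible factor that amplifies type I interferon production. It had 17.1, 21.8 and 17.9 CPM in WT replicates 1, 2 and 3 and 164, 162 and 134 CPM in IRF8KO replicates 1, 2 and 3. Every IRF8KO library was several times above every WT library, and the values within each group lay close together. WT averaged 18.9 ± 2.54 CPM, against 153 ± 17.2 for IRF8KO (SD, n = 3 each). The log2 fold change was 3.01 (SE 0.28, 95% interval 2.39 to 3.63), called with a BH-adjusted p = 3.6e-05 by edgeR's quasi-likelihood F test, and Irf7 ranked 58 among the tested genes by p. It was called in all 19 alternatives, with values from 2.51 under scaling by library size alone to 3.12.

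Irf3 (ENSMUSG00000003184, chr7:44997648-45002848, plus strand), the close relative of IRF7 that is made without prior stimulation, was not called. It had 55.5, 77.1 and 104 CPM in WT and 137, 92.3 and 136 CPM in IRF8KO replicates 1, 2 and 3. The lowest IRF8KO library was below WT replicate 3, so the groups overlapped. Its log2 fold change was 0.62 (SE 0.31, 95% interval −0.05 to 1.30; BH-adjusted p = 0.180, edgeR quasi-likelihood F test). Within a library, where scaling drops out, the ratio of Irf7 to Irf3 counts was 0.254 ± 0.0723 in WT and 1.31 ± 0.399 in IRF8KO, 5.16-fold higher (SD, n = 3 each; two-sided exact permutation p = 0.1, the smallest that 3 against 3 libraries can give).

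Irf5 (ENSMUSG00000029771, chr6:29526625-29541871, plus strand) encodes a factor that acts below Toll-like receptors and favours inflammatory cytokine genes in macrophages. It had 732, 888 and 1221 CPM in WT replicates 1, 2 and 3 and 482, 317 and 349 CPM in IRF8KO replicates 1, 2 and 3. All WT libraries were above all IRF8KO libraries, and the closest pair was WT replicate 1 and IRF8KO replicate 1. Its log2 fold change was −1.31 (SE 0.32, 95% interval −2.01 to −0.60), called with a BH-adjusted p = 0.0155 by edgeR's quasi-likelihood F test. Leaving out IRF8KO replicate 2 or 3 ended the call, with log2 fold changes of −1.18 and −1.23 and BH-adjusted p = 0.0661 and 0.117 by edgeR. Exons of Tnpo3 on the opposite strand overlap 14.1% of the exonic length of Irf5, and these libraries carry no strand, so counts in that stretch are uncertain. In the other members such overlap was at most 3.40%, in Irf1. The length of overlap did not track the reads lost. The 2 strand columns summed to 113.7% of the unstranded count in Irf1, 105.1% in Irf3 and 100.5% in Irf5. The column used thus left out more reads in Irf1 and Irf3 than in Irf5.

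Irf4 (ENSMUSG00000021356, chr13:30749226-30766976, plus strand), the nearest relative of Irf8, is known from lymphocytes, dendritic cells and alternatively activated macrophages. It was counted at only 9, 28 and 2 reads in WT and 36, 47 and 92 reads in IRF8KO replicates 1, 2 and 3. As CPM these were 1.75, 1.98 and 0.275 in WT and 5.76, 4.21 and 9.95 in IRF8KO, with no overlap. Irf4 passed the filter on low counts through the IRF8KO libraries. Its log2 fold change was 2.29 with a wide 95% interval of 0.66 to 3.91, just outside the threshold (BH-adjusted p = 0.0505, edgeR quasi-likelihood F test). It was called in 7 of 18 alternatives, among them DESeq2 (2.36, adjusted p = 0.0113) and the edgeR fit without WT replicate 3 (1.84, adjusted p = 0.0385).

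Irf1 (ENSMUSG00000018899, chr11:53770014-53778374, plus strand), an activator in the interferon gamma response, and Irf2 (ENSMUSG00000031627, chr8:46739732-46847458, plus strand), its classical antagonist at shared sites, leaned in opposite directions without being called. Irf1 had 111, 106 and 157 CPM in WT and 231, 150 and 233 CPM in IRF8KO replicates 1, 2 and 3. IRF8KO replicate 2 lay just below WT replicate 3, so the groups overlapped. Its log2 fold change was 0.71 (95% interval 0.06 to 1.37; BH-adjusted p = 0.115, edgeR quasi-likelihood F test). Irf2 had 38.6, 36.0 and 22.6 CPM in WT and 9.13, 23.1 and 15.0 CPM in IRF8KO replicates 1, 2 and 3. Here IRF8KO replicate 2 lay just above WT replicate 3. Its log2 fold change was −1.03 (95% interval −1.89 to −0.18; BH-adjusted p = 0.0864, edgeR quasi-likelihood F test). The ratio of Irf1 to Irf2 counts within a library was 2.87, 2.94 and 6.98 in WT and 25.4, 6.48 and 15.5 in IRF8KO, with an overlap at IRF8KO replicate 2 (two-sided exact permutation p = 0.2).

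Irf9 (ENSMUSG00000002325, chr14:55603571-55610030, plus strand) encodes the DNA-binding part of the complex with STAT2. It had 102, 107 and 142 CPM in WT and 205, 150 and 156 CPM in IRF8KO replicates 1, 2 and 3. The groups did not overlap, but only a small gap separated WT replicate 3 from IRF8KO replicate 2. The log2 fold change of 0.54 (SE 0.28, 95% interval −0.07 to 1.14) was not called (BH-adjusted p = 0.196, edgeR quasi-likelihood F test). Irf7 counts per Irf9 count were 0.165 ± 0.0386 in WT and 0.912 ± 0.146 in IRF8KO (SD, n = 3 each), 5.51-fold higher (two-sided exact permutation p = 0.1, the smallest possible).

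**Figure D2:**
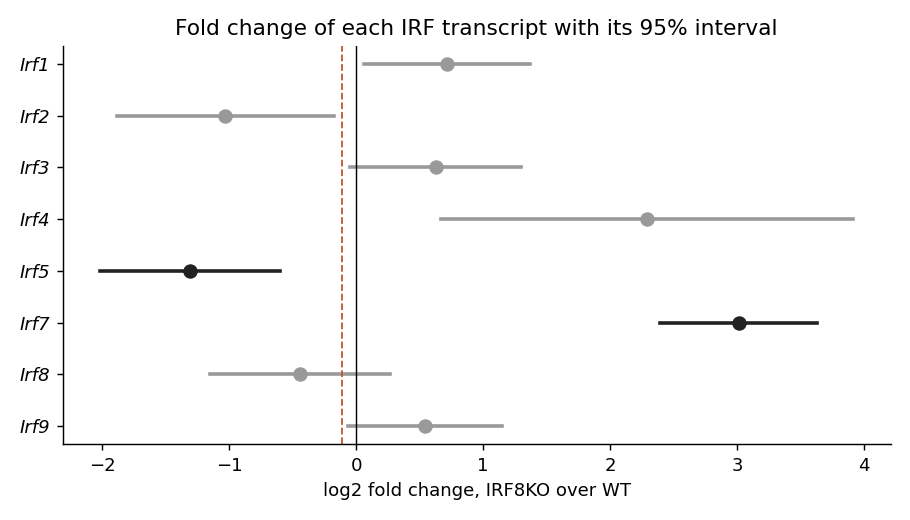
Log2 fold change of IRF8KO over WT for each member, with points at the estimate, lines for the 95% interval from edgeR and a dashed line at −0.11, the median of all tested genes. Only the intervals of Irf7 and Irf5 belong to called genes, at 3.01 and −1.31.

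Single libraries took like places for several members. WT replicate 3 was the highest WT library for Irf1, Irf3, Irf5, Irf8 and Irf9 and the lowest for Irf2 and Irf4. The longest transcripts of Irf2 and Irf4 had the lowest GC content of the family, 46.4% and 47.6%, against 50.4% to 56.7% in the other members. With a correction for GC content and length, Irf1 and Irf4 joined Irf5 and Irf7 as called, at 0.74 and 2.78 (BH-adjusted p = 0.0335 and 0.0142, edgeR quasi-likelihood F test). In that fit 22.4% of all tested genes were called. Without WT replicate 3, 7 members were called, all but Irf8, and 4003 of all genes were called in place of 2109. In that fit Irf1, Irf3, Irf9, Irf4 and Irf7 were higher in IRF8KO and Irf2 and Irf5 lower. Whether the composition of WT replicate 3 accounts for the missing calls was not tested.

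**Figure D3:**
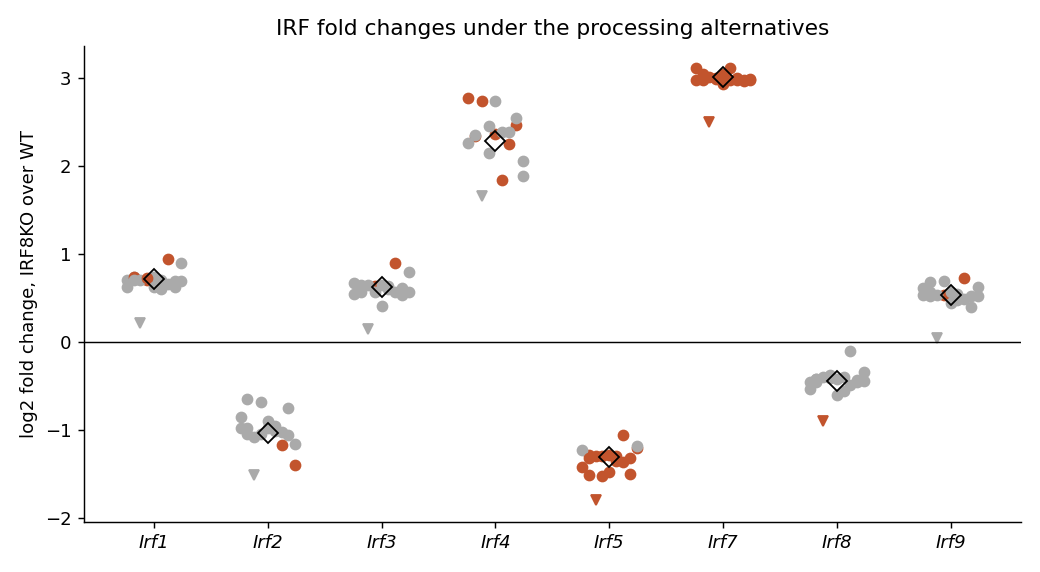
Log2 fold change of IRF8KO over WT for each member in the reported fit (diamonds) and in the alternatives (other points), with called values in orange and scaling by library size alone as triangles. Irf7 stays between 2.51 and 3.12 and is called throughout, while Irf8 is called under library size alone.

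Levels of different members were compared per length, as CPM per kilobase of each gene's longest principal transcript. In WT, Irf5 (422 ± 112) and Irf8 (356 ± 118) stood far above the rest (SD, n = 3 each). Irf1 followed at 58.4 ± 13.3, Irf9 at 47.6 ± 8.73 and Irf3 at 38.8 ± 12, then Irf2 at 13 ± 3.45, Irf7 at 9.88 ± 1.33 and Irf4 at 0.280 ± 0.194. The ranges of neighbours overlapped for Irf5 and Irf8, Irf1 and Irf9, Irf9 and Irf3, and Irf2 and Irf7, though Irf5 was above Irf8 in each of the 3 WT libraries. In IRF8KO the order began with Irf8 (262 ± 35.0) and Irf5 (171 ± 39.1), whose ranges did not overlap, and Irf8 was higher in all 3 libraries. Irf7 had rank 7 in WT and rank 4 in IRF8KO, at 80.0 ± 8.97 CPM per kilobase, overlapping Irf1 (95.8 ± 22.3) above it and Irf9 (69.3 ± 12.1) below it. Irf3 (59.9 ± 12.6), Irf2 (6.31 ± 2.81) and Irf4 (1.39 ± 0.624) closed the order. The order turns with the length used. The plan named exonic length for the family shares below, and not the principal transcript. The length of all exons joined was run as an alternative after seeing the data. Per kilobase of it, Irf5 (132 ± 30.2) stood above Irf8 (106 ± 14.1) in all 3 IRF8KO libraries, with overlapping ranges. In IRF8KO replicate 3 these genes were nearly equal, at 120.15 and 120.14. On this length Irf7 (5.01 ± 0.673) stood above Irf2 (4.38 ± 1.17) in 2 of 3 WT libraries. The mean of Irf3 also stood above that of Irf9 in both groups. On the principal transcripts, the sum over the 8 members was 947 ± 257 in WT and 745 ± 94.8 in IRF8KO, with overlapping ranges.

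As shares of this sum, which do not depend on scaling between libraries, Irf5 went from 44.7% ± 1.6 in WT to 22.8% ± 3.0 in IRF8KO, a difference of −21.9 percentage points (SD, n = 3 each). Irf8 had 37.3% ± 2.37 and 35.2% ± 3.55, with overlapping libraries. Higher shares in IRF8KO were found for Irf7, with 1.09% ± 0.303 and 10.9% ± 2.13, and for Irf1 (6.23% and 12.7%), Irf9 (5.11% and 9.29%) and Irf3 (4.08% and 7.99%), each with no overlap. The shares of a library sum to 100%, so the lower Irf5 share raises the others by construction, and the part of this in each rise was not separated. By CPM, Irf1, Irf3 and Irf9 were not called, with adjusted p from 0.115 to 0.196 by edgeR. Irf4 had 0.0341% and 0.185%, and Irf2 had 1.49% and 0.890%. Two-sided exact permutation tests gave p = 0.1 for the 6 members whose libraries did not overlap (0.133 adjusted over the 8 members), 0.3 for Irf2 and 0.5 for Irf8; 3 against 3 libraries cannot go below 0.1. Within a library, Irf5 counts per Irf8 count were 0.923, 1.05 and 0.872 in WT and 0.651, 0.488 and 0.412 in IRF8KO, and Irf7 counts per Irf8 count were 0.0215, 0.0257 and 0.0128 in WT and 0.222, 0.250 and 0.158 in IRF8KO. The means of these ratios were 1.83-fold lower and 10.5-fold higher in IRF8KO (exact permutation p = 0.1 for both).

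**Figure D4:**
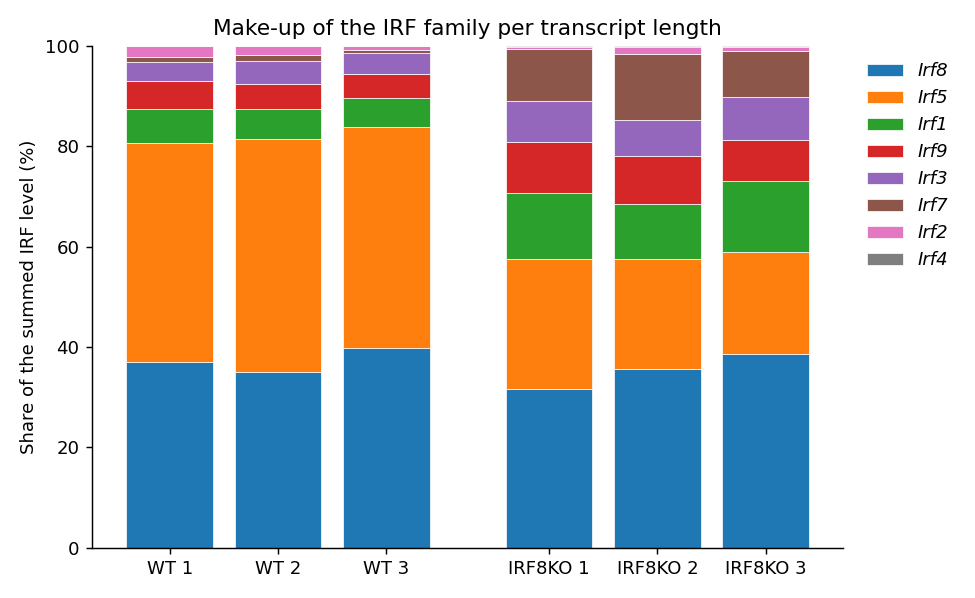
Share of each member in the summed per-length level of the 8 IRF genes, in percent, as stacked bars that start at 0, with 1 bar per library. Irf5 and Irf8 make up most of every WT bar, and in the IRF8KO bars the Irf5 share is near 22.8% on average and Irf7 is near 10.9%.

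The transcripts whose levels ran most like a member's were taken as the 3 highest Pearson correlations of log2 CPM over the 6 libraries, among 6050 tested genes that averaged 10 CPM or more. For Irf7 these were Gtf2h5 (0.999), Nlrc3 (0.999) and Runx3 (0.998), with Gtf2h5 averaging 10.6 ± 0.474 CPM over WT and 22.5 ± 0.931 over IRF8KO (SD, n = 3 each). Nlrc3 and Runx3 averaged 0.0235 CPM over WT and 23.4 and 60.1 CPM over IRF8KO, so they passed the filters through IRF8KO alone and had to follow the groups. For Irf5 they were Ipo13, Ap1b1 and Tmem229b, at 0.997, 0.997 and 0.996. For Irf8 they were Ephb3 (0.995), Tk2 (0.987) and Trpv2 (0.984). The points are 2 groups of 3 libraries that share their scaling, so these values describe likeness over the groups and little else.

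Upstream of the IRFs stand sensors, adaptors and kinases. Of 22 listed genes 21 were tested, 6 fell, none rose and 15 were not called, 28.6% called against 19.1% of all tested genes. Tlr3 (5, 23 and 10 counts in IRF8KO) and Cgas (5, 3 and 7) passed the filter on low counts through WT, where they are high, and so had to differ. With at least 10 counts in every library 4 of 17 were called, 23.5%, near the 23.7% of all genes tested there. The endosomal RNA sensor Tlr3 fell from 16.7 ± 9.79 to 1.31 ± 0.661 CPM (−3.62) and the DNA sensor Cgas from 6.76 ± 2.71 to 0.609 ± 0.295 CPM (−3.48). Unc93b1, which carries nucleic acid receptors to endosomes, fell from 5484 ± 2538 to 1700.5 ± 479 CPM (−1.69), and Tlr7, a receptor for single-stranded RNA that signals to IRF5 and IRF7, from 82.5 ± 36.3 to 24.4 ± 11.9 CPM (−1.75; SD, n = 3 each). Their adjusted p were 0.0029, 0.0067, 0.0146 and 0.0159 (BH, quasi-likelihood F test of edgeR). Without IRF8KO replicate 3 the list kept 2 calls, with Tlr7 and Unc93b1 at BH-adjusted p = 0.101 and 0.120 by edgeR; without IRF8KO replicate 1 or WT replicate 2 it had 4, and Tlr7 was not called. Over all genes the share called in the fits without 1 library ran from 7.95% without IRF8KO replicate 3 to 33.5% without WT replicate 3. Tlr7 was also not called with library size without Apoe (adjusted p = 0.0655, edgeR), nor Cgas with the first strand column. Unc93b1 was also not called without IRF8KO replicate 2. Slc15a4 (−1.23), which links endosomal receptors to IRF5, and the adaptor Ticam2 (−2.01) made up the remaining calls, at BH-adjusted p = 0.0196 and 0.0312 by edgeR. Slc15a4 lost its call without IRF8KO replicate 2 or 3. Ticam2 kept its call in 12 of 19 alternatives and lost it with library size without Apoe (0.0722), limma-voom, the replicate block with the GC and length offset, and without WT replicate 1 or 2 or IRF8KO replicate 1 or 3.

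Among 13 partners that bind DNA or recruit coactivators, 11 were tested and 1 was called, lower in IRF8KO, 9.09% beside 19.1% of all tested genes. The lower calls numbered 2 without WT replicate 3 or IRF8KO replicate 2. They were also 2 with no filter, at least 10 counts in every library, the first strand column, and the replicate block with or without the GC and length offset. Scaling by library size alone gave 4, where 23.2% of all genes were called, and DESeq2 gave 1 higher and 2 lower. Batf3, a BATF factor known to work with IRF8 and IRF4 in dendritic cells, fell from 23.0 ± 1.86 to 1.00 ± 1.23 CPM (SD, n = 3 each), a log2 fold change of −4.44 (BH-adjusted p = 0.0025, edgeR quasi-likelihood F test). It had 0, 7 and 22 counts in IRF8KO and passed the filter through WT. Stat2, which encodes a partner of IRF9, was not called, at 0.20, and its sign turned under scaling by library size alone. Spi1, which encodes PU.1, was not called either, at −0.24; it was called lower under library size alone (BH-adjusted p = 0.0133, edgeR), and its sign turned without WT replicate 3. Batf (1.00), Ikzf1 (−1.54) and Bcl6 (−1.51), named for the next smallest p-values of the list, were not called either.

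Of 9 co-repressors and negative regulators, 1 rose and 1 fell, 22.2%, which is near the 19.1% of all tested genes. Irf2bpl, a relative of the IRF2-binding proteins, fell from 63.8 ± 12.5 to 7.80 ± 2.70 CPM (−3.02, adjusted p = 1.5e-04), and its relatives Irf2bp1 (−1.07) and Irf2bp2 (0.81) were not called, with adjusted p of 0.0836 and 0.0562 (BH, quasi-likelihood F test of edgeR). Irf2bp1 was called lower in 8 of 19 alternatives, among them library size alone (adjusted p = 0.0057), library size without Apoe (0.0377) and the replicate block, and Irf2bp2 was called higher in 5. Usp18, which dampens signalling from the type I interferon receptor, rose from 15.0 ± 0.728 to 39.0 ± 4.98 CPM (1.38, adjusted p = 0.0074 by edgeR), a call that scaling by library size alone ended (adjusted p = 0.0691). Tnfaip3, named for its p-value, had −1.27 and was not called. Without WT replicate 3, where 33.5% of all genes were called, this list had 3 higher and 2 lower calls.

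Interferon transcripts themselves were barely counted. Of 7 ligand genes listed, Ifna1, Ifna2, Ifna4, Ifng, Ifnl2 and Ifnl3 were at 0 in all 6 libraries (a count of 0 allows up to 3 counts in each), and Ifnb1 had 0 counts in WT and 9 over the IRF8KO libraries. Of the 8 receptor and Janus kinase genes tested, 3 were called, 37.5% beside 19.1% of all tested genes. Il10rb rose from 116 ± 20.6 to 214 ± 17.0 CPM (0.88), Jak1 fell from 128 ± 56.5 to 39.8 ± 21.2 CPM (−1.68) and Tyk2 fell from 128 ± 34.6 to 61.1 ± 20.7 CPM (−1.07; SD, n = 3 each). Their adjusted p were 0.0403, 0.0196 and 0.0413 (BH, quasi-likelihood F test of edgeR). None of the 3 was called without WT replicate 2, IRF8KO replicate 1 or IRF8KO replicate 3, where the adjusted p reached 0.147, 0.123 and 0.164. Without WT replicate 3 the list had 3 higher and 3 lower calls among 9 tested, where 33.5% of all genes were called. The call of Il10rb was held in 10 of 19 alternatives and was also lost with library size alone (adjusted p = 0.393), library size without Apoe (0.0667), no filter, the replicate block, and without WT replicate 1 or IRF8KO replicate 2. Jak1 lost its call with library size without Apoe (0.0706), and Tyk2 with RLE size factors and without IRF8KO replicate 2. Ifngr1 had a log2 fold change of −0.94 and just missed the threshold (adjusted p = 0.0506 by edgeR).

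Downstream stand antiviral genes that are textbook targets of IRF9 with STAT2, of IRF3 and of IRF7. Of 24 tested genes of 25 listed, 12 rose, none fell and 12 were not called. Genes with almost no WT counts, such as Oas2 (2, 3 and 0 counts) and Oas3, passed the filter on low counts through the IRF8KO libraries and so had to differ, which makes this count a description, to be read with that limit beside the 19.1% called among all tested genes. With at least 10 counts required in every library, 11 of the genes were tested and 9 rose, where 23.7% of all genes were called. The summed level was 173 to 183 CPM in WT and 597 to 670 CPM in IRF8KO, with no overlap. Oas2, which makes the messenger that activates RNase L, rose from 0.200 ± 0.194 to 32.2 ± 14.1 CPM (7.31). Its relatives Oasl1 and Oas1a rose from 4.06 ± 1.67 to 41.4 ± 11.3 CPM (3.31) and from 10.3 ± 1.77 to 54.0 ± 10.4 CPM (2.40; SD, n = 3 each). Oas3 was at 0 in all WT libraries and reached 205 counts summed over IRF8KO, at least 68.1-fold higher against a floor of 3 counts over the WT group. For these 4 genes edgeR's quasi-likelihood F test gave BH-adjusted p from 4.5e-05 to 5.5e-04, and the Oas genes have similar copies, between which unique mapping can split reads unevenly. The list had 10 to 13 higher calls without 1 library and 9 under scaling by library size alone.

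**Figure D5:**
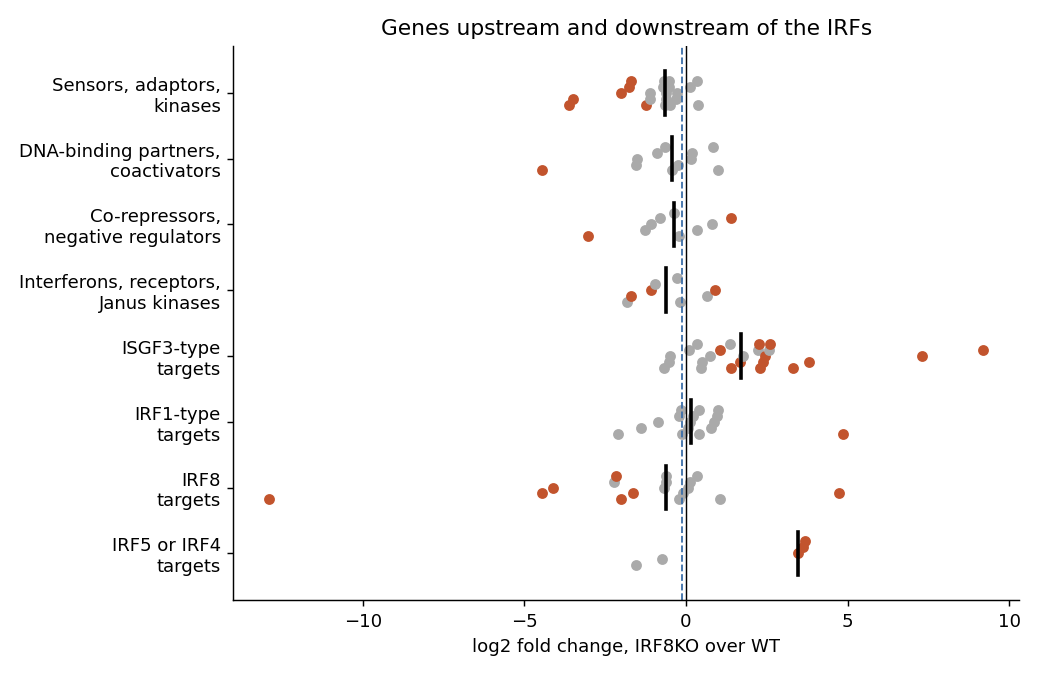
Log2 fold change of IRF8KO over WT for the tested genes of each pathway list, with called genes in colour, the others in grey and a dashed line at the all-gene median of −0.11. In the list of textbook targets of IRF9 with STAT2, 12 of 24 genes are called, all above 0, and the fitted values of Oas3 and Sall1 depend on the prior count because 1 group is at 0.

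Of 16 tested targets of the interferon gamma response linked to IRF1, only Il18bp was called, 6.25% beside 19.1% of all tested genes. It encodes a binding protein that neutralises IL-18, and rose from 2.85 ± 0.331 to 82.3 ± 13.5 CPM (SD, n = 3 each; log2 fold change 4.85, BH-adjusted p = 3.4e-06, edgeR quasi-likelihood F test), and the list's median was 0.16, with 3 higher calls without WT replicate 3. The next by p-value, Psmb10 (0.86), Pml (0.76) and Casp1 (−1.39), were not called. Of 17 tested genes described as IRF8 targets in myeloid cells, 6 fell and 1, the oxidase subunit gene Cybb (4.74), rose, 41.2% called beside 19.1% of all tested genes. Sall1 and Batf3, at or near 0 in IRF8KO, passed the filter on low counts through WT, and Cybb (14, 1 and 0 counts in WT) through IRF8KO, so these had to differ. With at least 10 counts in every library 4 of 12 were called, all lower, beside 23.7% of all genes. Scaling by library size alone gave 10 lower calls and none higher, and Cybb was not called there or with library size without Apoe (adjusted p = 0.0680 and 0.0516, edgeR). Those that fell include the fractalkine receptor Cx3cr1, from 2624 ± 205 to 588 ± 138 CPM (−2.16), Aif1, which encodes IBA1, from 185 ± 25.0 to 46.3 ± 12.5 CPM (−1.997), and the purinergic receptor P2ry12, from 846 ± 383 to 48.3 ± 44.7 CPM (−4.12). Sall1, a transcription factor of microglia, had 2904 counts over WT and 0 over IRF8KO, at least 971-fold lower. For these 4 genes edgeR's quasi-likelihood F test gave BH-adjusted p from 1.3e-05 to 0.0010.

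Of 12 genes described as targets of IRF5 or IRF4 in macrophages, 5 were tested, 3 rose and none fell, where 19.1% of all tested genes were called. With at least 10 counts in every library 2 were tested and 1 rose, and Il1b and Ccl5 each had a WT library under that minimum. Mrc1, the mannose receptor, rose from 3.11 ± 0.542 to 39.2 ± 19.0 CPM (3.67), the chemokine Ccl5 from 2.18 ± 1.44 to 24.0 ± 4.12 CPM (3.46) and Il1b from 2.24 ± 1.31 to 29.0 ± 14.7 CPM (3.63; SD, n = 3 each). Their adjusted p lay between 2.1e-04 and 9.9e-04 (BH, quasi-likelihood F test of edgeR). Prdm1, the remaining gene named by its p-value, had −1.56 and was not called. The median was 3.46 over these 5 genes, and between 1.06 and 1.44 in the fits without WT replicate 3 or 1 of the IRF8KO libraries, where 6 genes were tested. Those fits gave 3 higher calls each, with 1 lower call without WT replicate 3 or IRF8KO replicate 1 and 2 without IRF8KO replicate 2, and with no filter on low counts 11 genes were tested, 4 higher and 1 lower.

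Markers of other cells that make IRFs were called between the groups as well. Their counts are descriptions, since a marker near 0 in WT passes the filter on low counts only through IRF8KO and then has to differ; 19.1% of all tested genes were called. Of 10 tested markers of border-associated macrophages, 9 rose, of which Cd163 and F13a1 had 0 counts in every WT library. The sum over the list was 620 to 839 CPM in WT and 3915 to 5103 CPM in IRF8KO, while Lyve1 and Cd209f were at 0 in all 6 libraries. Of 4 tested markers of plasmacytoid dendritic cells, which carry much IRF7, Cox6a2 (5.01) and Runx2 (5.18) rose, while Tcf4 (−0.43) and Pacsin1 (−1.25) were not called. The sum was 17.5 to 43.7 CPM in WT and 120 to 131 CPM in IRF8KO, and Klk1, Ly6d and Dntt were at 0 in all libraries. Ccr9 and Spib had counts in WT, were at 0 in every IRF8KO library and were not tested. Conventional dendritic cell markers, with 3 of 10 tested and Zbtb46 (2.49) higher, summed to 8.93 to 10.7 CPM and 28.0 to 33.1 CPM, with Clec9a, Cd209a, Ccr7, Kmo and Dpp4 at 0 throughout. Of 5 tested markers of B and plasma cells, which use IRF4 and IRF8, Cd79b (−2.15), Ighm (−5.06), Ighd (−7.25) and Cd22 (−1.52) fell and none rose. Their list summed to 1232 to 1539 CPM in WT and 739 to 1233 CPM in IRF8KO, with Ms4a1, Pax5 and Jchain at 0 in all libraries. Monocyte markers, with 2 of 12 tested and Fn1 (5.13) higher, summed to 7.15 to 28.6 CPM in WT and 10.9 to 64.5 CPM in IRF8KO. Neutrophil markers, with 1 of 10 tested and called higher, summed to at most 0.194 CPM in WT and 2.72, 363 and 2.06 CPM in IRF8KO replicates 1, 2 and 3. IRF8KO replicate 2 alone carried the high neutrophil sum. The only tested T and NK cell marker, Cd4, rose from 0 counts in WT, and that list summed to at most 1.62 CPM in WT and 4.16 to 6.17 CPM in IRF8KO. Among cells of the brain itself, 3 of 4 tested neuron markers rose, with sums of 0.777 to 13.1 CPM in WT and 31.9 to 54.0 CPM in IRF8KO. Astrocyte markers had 4 higher and 1 lower call among 7 tested, and their sums overlapped, at 190.5 to 222 CPM and 152 to 261 CPM. Oligodendrocyte markers had 1 lower call among 6 tested (284 to 699 CPM and 483 to 690 CPM), and endothelial markers 1 higher and 1 lower among 3 (19.0 to 32.4 CPM and 19.2 to 23.9 CPM). None of 5 tested red blood cell markers was called, with sums of 0, 0 and 57.5 CPM in WT and 53.6, 96.2 and 436 CPM in IRF8KO replicates 1, 2 and 3. The calls are by edgeR's quasi-likelihood F test with BH adjustment. The part of these cells in the levels of Irf7, Irf5 and Irf4 was not tested, and in bulk RNA more cells of a type and more RNA per cell cannot be told apart.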

How the data were processed

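The deposited tables hold raw counts of reads per gene, made by the authors before deposit in the layout that STAR writes, with 4 summary lines that were left out of library sizes; column 2, which ignores strand, was used. The submitters' processing notes name STAR 2.5.2b, Picard 2.17.11, Subread, featureCounts and the build mm10, without their roles. Per the labels' protocols, cDNA came from a SMART-Seq low-input kit with Nextera XT tagging, without strand or molecular identifiers, so PCR copies are not told apart, and floors of 3 counts cover counting error only. Intervals of log2 fold changes come from the fit and include the spread between libraries. Identifiers were matched to GENCODE M21 on GRCm38 for 49326 of 49585 genes.

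The counts entered edgeR 4.0.16 under R 4.3.3 (filterByExpr with minimum count 10, TMM scaling, quasi-likelihood F test, genotype as the only term) and Benjamini-Hochberg adjustment over 11041 genes; a gene was called at an adjusted p under 0.05. Like genes were ranked on log2 CPM with a prior count of 2. On simulated data of 10333 genes, 100 fitted genes were changed by 1 log2 unit and 99 by 2 log2 units. Of these changes 9% and 61.6% were called. Genes named beside the family were the 4 smallest p-values of each list, with Stat2, Spi1, Batf3 and the IRF2-binding proteins always named. The members and lists were chosen with earlier results of these data known. Ifnb1 and the other ligands, Slc15a4, Ticam2, Cybb and the cell type markers were named outside that rule, after their values were seen. Libraries came from separate brains; counts of 2 libraries of a group differed by at least 8.57 in chi-square per degree of freedom, so none was taken as a duplicate. A further family member and some listed genes are not reported here.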

Additional observations from a re-analysis of the deposited data

How the results depend on the processing

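All 8 members kept the sign of their log2 fold change in every alternative that tested them, and Irf7 kept its call in all 19; a filter of at least 10 counts in every library removed Irf4. With 1 library left out, between 910 and 4003 genes and between 1 and 7 members were called. The log2 fold changes then ranged from 0.60 to 0.94 for Irf1, from −1.41 to −0.75 for Irf2, from 0.41 to 0.90 for Irf3, from 1.84 to 2.75 for Irf4, from −1.50 to −1.06 for Irf5, from 2.93 to 3.12 for Irf7, from −0.61 to −0.11 for Irf8 and from 0.40 to 0.73 for Irf9. Irf4 was also called with RLE size factors (2.35), DESeq2 (2.36), no filter (2.26) and the first strand column (2.47). Irf8 was called at −0.90 with library size alone, which moved the median of all tested genes from −0.11 to −0.61 and the share of higher calls from 50.5% to 25.4%; with no filter the median was 0.10. Library size without Apoe called 5 members, and 18.8% of all tested genes. It added Irf1 (0.71), Irf3 (0.64) and Irf9 (0.54), which library size alone put at 0.21, 0.14 and 0.04, not called. The offset for GC content and length called 4 members, adding Irf1 (0.74) and Irf4 (2.78), where 22.4% of all tested genes were called. The cause of these differences was not tested.

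The replicate numbers are not stated to pair the mice. Deviations of same-numbered libraries correlated at −0.26, 0.33 and 0.11, and those of differently numbered libraries between −0.42 and 0.35. With 3 libraries per group this cannot tell whether the numbers pair them. With the numbers as a block 2353 genes were called in place of 2109. With the replicate block and the GC and length offset 4 members were called, among them Irf1 at 0.73 and Irf4 at 2.74. That fit called 2275 genes, 20.6% of all tested. The plan named exonic length for the shares, and the principal transcript was used in its place. Shares per union exonic length, an alternative run after seeing the data, differed by 4.69 percentage points for Irf3, 0.281 for Irf4 and −26.0 for Irf5. That of Irf8, which did not differ beyond its spread, differed by 0.93, against −2.04 on the principal transcript. Irf4 had 2 counts in WT replicate 3 and 9 in the shallower WT replicate 1. In the simulated data, changes of 1 log2 unit were mostly missed. Far fewer genes were changed there than were called here, so its power is not that of this comparison.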
